A study of Homo sapiens with 12 samples.

Results

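The genes that encode collagen chains were compared in RNA from cultured renal carcinoma cells. A gene belonged to the group when its name in the deposited table was COL followed by a type number, the letter A and a chain number. Of 38021 gene names, 44 had this form, and the 32 that reached a summed count of 50 or more over the 12 libraries were compared between the groups. By structure these were 9 of 11 fibrillar chains, all 6 basement membrane (type IV) chains and 17 of 27 other chains. The members nearest to the limit were COL6A5 with 52 summed counts and COL5A3 with 61, and the names just below it were COL9A3 with 45, COL1A2 with 43 and COL21A1 with 38.

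786O is an established line of clear cell renal cell carcinoma (ccRCC) without functional VHL, the ubiquitin ligase subunit that marks hypoxia inducible factors for degradation. WT8 cells are 786O cells that express wildtype VHL. Both lines were infected with lentivirus that encodes an shRNA and were kept under puromycin. The shRNA was either a scrambled control (shControl) or directed against BMAL1 (shBMAL1), the circadian transcription factor whose gene is listed as ARNTL. The 4 groups, 786O shControl, 786O shBMAL1, WT8 shControl and WT8 shBMAL1, held 3 replicates each, which the labels call biological. The comparisons ask how BMAL1 depletion changed collagen transcripts without and with VHL, and how the lines differed. WT8 is a line of its own, so VHL cannot be told apart from any other difference between the lines. Likewise, the effect of losing BMAL1 cannot be told apart from another effect of the 1 shRNA used.

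Collagens are extracellular proteins whose alpha chains, each the product of its own gene, wind into a triple helix. Fibrillar collagens build the banded fibrils of connective tissue, and type IV chains form the sheet-like network of basement membranes, on which kidney tubules rest. The other classes form beaded filaments, anchoring fibrils, hexagonal networks, molecules attached to fibrils, membrane proteins and the cores of basement membrane proteoglycans.

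Between 33182025 and 36477509 counts were assigned to genes per library, and collagen genes took 0.354% to 0.638% of them. Levels are given as counts or as CPM, counts per 1000000 counts after TMM scaling, with the SD over 3 replicates. ARNTL was at 12.1 ± 1.4 CPM with shControl and 3.94 ± 0.22 with shBMAL1 in 786O, and at 9.24 ± 0.97 and 1.66 ± 0.24 CPM in WT8. VHL was at 18.8 ± 1.6 and 19.4 ± 1.6 CPM in 786O and at 981 ± 56 and 647 ± 15 CPM in WT8, in the same order. Of 8 markers of the renal carcinoma line, PAX8, KRT8, KRT18 and VIM had group means between 254 and 4481 CPM, and PAX2 between 10.9 and 24.8. The epithelial genes KRT19 and EPCAM were at 184 and 9.23 CPM in 786O shControl but at 0.418 and 0.0193 CPM in WT8 shControl. CA9, a hypoxia target, was low in 786O, at 4 to 22 counts per library with shControl and 36 to 49 with shBMAL1. It had no count in any WT8 library. The 6 fibroblast markers summed to 4.83 to 4.92 CPM with shControl and 7.74 to 9.16 with shBMAL1 in 786O, and to 6.64 to 7.26 and 10.1 to 10.8 CPM in WT8. Among them DCN, PDGFRA and POSTN were at 0 in all WT8 libraries, and DCN and POSTN had at most 5 counts in any 786O library. PDGFRA went from 0.0665 CPM with shControl to 0.316 with shBMAL1 in 786O. LUM went from 2.49 to 6.78 CPM in 786O and from 0.515 to 7.23 in WT8, PDGFRB from 2.06 to 1.48 and from 5.46 to 1.04, and THY1 from 0.134 to 0.0479 and from 0.906 to 2.25. The 3 smooth muscle markers summed to 5.23 to 11.7 CPM, the 4 endothelial markers to 0.0864 to 1.47 and the 4 immune markers to 0.114 to 0.493. The part of these markers in the collagen results was not tested. In bulk RNA, fewer cells that carry a transcript and less of it per cell cannot be told apart.

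Depletion of BMAL1 went with collagen changes in both directions in 786O and mostly with lower levels in WT8. Tests were run with edgeR's quasi-likelihood method over 16838 genes, and a gene was called at a Benjamini-Hochberg adjusted p under 0.1. Of the 32 members, 30 passed the filter on low counts, and COL5A3 and COL6A5 did not. In 786O, 18 of the 30 were called, 11 higher and 7 lower with shBMAL1, where 48.9% of all genes were called (24.5% higher and 24.4% lower). In WT8, 24 of the 30 were called, 3 higher and 21 lower, where 69.8% of all genes were called (32.9% higher and 36.9% lower). Between the lines, 29 of the 30 were called, 16 higher and 13 lower in WT8 shControl than in 786O shControl, where 79.5% of all genes were called (39.3% higher and 40.1% lower). The change with shBMAL1 itself differed between the lines (interaction) for 23 of the 30, 4 more positive and 19 more negative in WT8, where 56.0% of all genes were called (27.4% and 28.6%). These shares show how readily a gene was called in this fit, where the biological coefficient of variation was 5.70%. What set the shares was not tested.

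Changes over 2-fold were called for 10 of the 30 members in 786O (6.82% of all genes), 12 in WT8 (20.5%), 20 between the lines (32.1%) and 15 in the interaction (17.4%). The median log2 change of the tested members was 0.09 in 786O, -0.60 in WT8, 0.77 between the lines and -1.07 in the interaction, beside medians of 0.00, -0.04, 0.00 and -0.03 over all genes. Members such as COL3A1, COL4A3, COL11A1, COL20A1, COL24A1, COL26A1 and COL28A1 passed the filter only through the groups where they were high. These counts therefore describe the list and support nothing further. The 786O comparison and the line comparison share the 786O shControl libraries, and the WT8 comparison and the line comparison share the WT8 shControl libraries.

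All 6 type IV genes were called higher in WT8 shControl than in 786O shControl, COL4A6 from overlapping groups. With shBMAL1 in WT8, 5 of the 6 were called lower. COL4A1 and COL4A2, which encode the chains of the most widespread basement membrane network, were the most abundant collagen transcripts. COL4A1 had 34996, 36092 and 30903 counts in 786O shControl, 28983, 29555 and 29050 in 786O shBMAL1, 67121, 72536 and 74920 in WT8 shControl, and 57725, 51908 and 47288 in WT8 shBMAL1. Its WT8 libraries were all above its 786O libraries, and the shControl and shBMAL1 libraries did not overlap in either line. COL4A2 had 37139, 36319 and 31992 counts in 786O shControl, 33588, 36290 and 34686 in 786O shBMAL1, 67226, 71212 and 73071 in WT8 shControl, and 60128, 54072 and 49105 in WT8 shBMAL1. Here the 786O groups overlapped and the WT8 groups did not. The difference between the lines was 1.02 ± 0.07 on the log2 scale for COL4A1 (SE, adjusted p = 9.74e-09) and 0.96 ± 0.08 for COL4A2 (adjusted p = 3.39e-08). With shBMAL1, COL4A1 fell by 0.22 ± 0.07 in 786O (adjusted p = 0.0285) and by 0.51 ± 0.07 in WT8 (adjusted p = 2.78e-05), whereas COL4A2 changed by -0.01 ± 0.08 in 786O (adjusted p = 0.920) and fell by 0.43 ± 0.08 in WT8 (adjusted p = 0.000169). The interaction was called for both, at -0.29 ± 0.10 (adjusted p = 0.0331) and -0.42 ± 0.11 (adjusted p = 0.00466), but not for COL4A1 without WT8 shControl replicate 2 (adjusted p = 0.115).

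**Figure D1:**
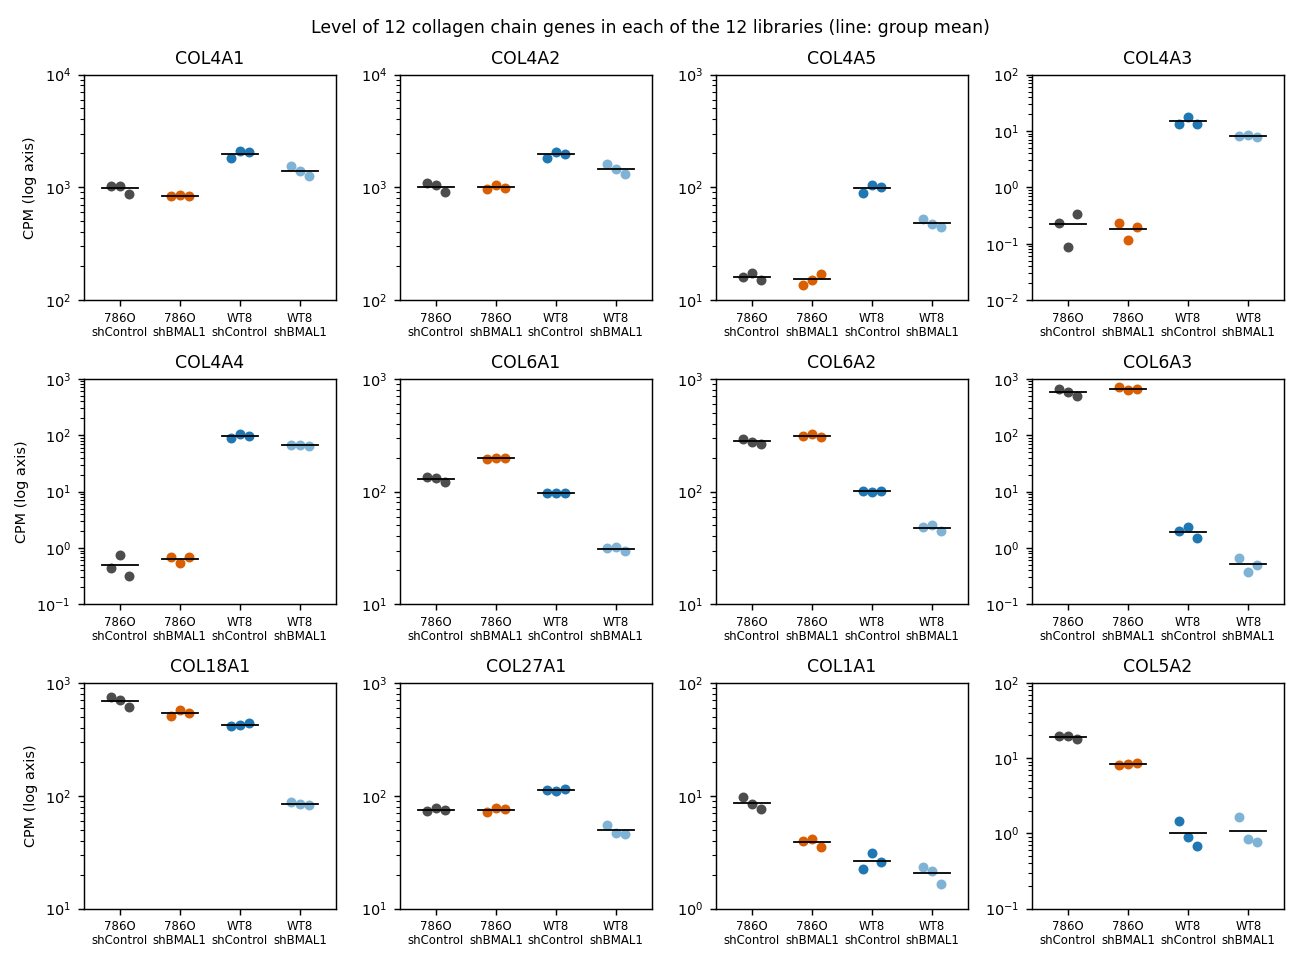
CPM (log axis, with a range of its own in each panel) of 12 collagen chain genes in the 12 libraries. Each point is a library and each line a group mean. COL6A3 drops from 580 CPM in 786O shControl to 1.95 in WT8 shControl, and COL4A4 rises from 0.498 to 96.5.

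Of the other type IV genes, COL4A3, COL4A4 and COL4A6 were low in 786O. COL4A3, COL4A4 and COL4A5 were higher in WT8 shControl than in 786O shControl without overlap. COL4A3, COL4A4 and COL4A5 encode the chains of the glomerular basement membrane, and mutations in them cause Alport syndrome. COL4A4 had 15, 26 and 11 counts in 786O shControl, 24, 19 and 24 in 786O shBMAL1, 3297, 3573 and 3536 in WT8 shControl, and 2519, 2526 and 2361 in WT8 shBMAL1. COL4A3 had 8, 3 and 12 counts in 786O shControl, 8, 4 and 7 in 786O shBMAL1, 493, 609 and 496 in WT8 shControl, and 302, 312 and 290 in WT8 shBMAL1. For both genes every WT8 library was above every 786O library, and the WT8 shBMAL1 libraries were below the WT8 shControl libraries. The line difference was 192-fold for COL4A4 (log2 7.59 ± 0.12, adjusted p = 3.03e-34) and 66.3-fold for COL4A3 (log2 6.05 ± 0.22, adjusted p = 1.28e-23). COL4A5 had 545, 607 and 533 counts in 786O shControl and 3275, 3589 and 3719 in WT8 shControl, a 6.08-fold difference (adjusted p = 2.70e-25). With shBMAL1 in WT8 these genes fell by 0.55 ± 0.07 (COL4A4), 0.88 ± 0.13 (COL4A3) and 1.03 ± 0.07 (COL4A5) on the log2 scale, with adjusted p of 6.05e-09, 2.47e-07 and 9.04e-15. In 786O their shControl and shBMAL1 libraries overlapped and none was called, with changes of 0.36 ± 0.27, -0.27 ± 0.48 and -0.08 ± 0.08. COL4A3 and COL4A4 had only 3 to 26 counts per library there, and without 786O shControl replicate 2 COL4A4 was called (log2 0.77, adjusted p = 0.0458). COL4A6 stayed between 0 and 16 counts per library, and its line difference (log2 1.99 ± 0.79, adjusted p = 0.0222) came from overlapping groups and was lost without 786O shControl replicate 2.

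The type IV genes lie in head to head pairs whose members start close to each other on opposite strands, so each pair shares the bases between its start sites. In GENCODE lifted to GRCh37, COL4A1 lies at chr13:110801310-110959504 on the - strand and COL4A2 at chr13:110958159-111165556 on the + strand, so that the gene models overlap. In the RefSeq annotation of GRCh38.p14, 126 bases separate the start sites of COL4A1 and COL4A2 on chromosome 13, 418 those of COL4A4 and COL4A3 on chromosome 2, and 379 those of COL4A5 and the nearer start of COL4A6 on chromosome X. Per kilobase of transcript, COL4A1 was at 0.953 ± 0.025, 0.826 ± 0.024, 1.00 ± 0.014 and 0.947 ± 0.0017 times COL4A2 in 786O shControl, 786O shBMAL1, WT8 shControl and WT8 shBMAL1. COL4A3 was at 0.191 ± 0.019 times COL4A4 in WT8 shControl, and in that group COL4A5 was between 238 and 838 times COL4A6. With the union of all annotated exons as the length, the COL4A1 to COL4A2 ratio was 1.27, 1.10, 1.33 and 1.26, so which partner is more abundant depends on the length used.

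Bases of the pairs are shown because COL4A1, COL4A2, COL4A3, COL4A4 and COL4A5 were all higher in WT8. The bases before COL6A3 are shown beside them because that gene moved the other way. The shared interval is whole only for COL4A1 and COL4A2. For the other pairs only the 250 bases before COL4A3 and COL4A5 were taken, and the rest of their intervals was not searched. Capitals mark the hypoxia response core (ACGTG or GCGTG) and the GC box (GGGCGG) on either strand, a match on the other strand being written as its complement, and the E-box CACGTG, which contains ACGTG, was searched as well.
COL4A1 and COL4A2, the whole interval, chr13:110307158-110307283, + strand: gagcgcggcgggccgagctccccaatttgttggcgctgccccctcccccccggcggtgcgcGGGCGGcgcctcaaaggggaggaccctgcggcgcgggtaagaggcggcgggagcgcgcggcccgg
COL4A3, before its start, chr2:227164374-227164623, + strand: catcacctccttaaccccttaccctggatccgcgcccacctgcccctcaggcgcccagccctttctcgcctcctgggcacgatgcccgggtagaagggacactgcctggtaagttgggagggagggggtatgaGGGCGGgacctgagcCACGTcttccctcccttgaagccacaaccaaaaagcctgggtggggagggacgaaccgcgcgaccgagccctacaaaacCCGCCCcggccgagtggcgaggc
COL4A5, before its start, chrX:108439588-108439837, + strand: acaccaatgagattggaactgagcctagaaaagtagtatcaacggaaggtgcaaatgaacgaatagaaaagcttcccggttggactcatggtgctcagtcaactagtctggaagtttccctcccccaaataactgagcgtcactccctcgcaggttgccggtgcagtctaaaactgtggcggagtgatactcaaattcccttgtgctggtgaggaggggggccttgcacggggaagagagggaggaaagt
COL6A3, before its start, chr2:237414165-237414414, - strand: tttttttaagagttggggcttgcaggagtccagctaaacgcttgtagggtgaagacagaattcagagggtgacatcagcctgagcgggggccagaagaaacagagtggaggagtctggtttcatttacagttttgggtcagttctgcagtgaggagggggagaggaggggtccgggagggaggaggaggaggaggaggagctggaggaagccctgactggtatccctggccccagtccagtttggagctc
The interval of COL4A1 and COL4A2 held 1 GC box, which 34.6% of all promoters hold in their last 126 bases. The 250 bases before COL4A3 held 1 ACGTG and 2 GC boxes, motifs found in 18.5% and 42.6% of all 35116 promoters at that length, and the windows of COL4A5 and COL6A3 held none of the letters searched. Of the 24 members in the RefSeq table, 0 had the E-box, 5 had ACGTG, 8 had GCGTG and 17 had a GC box in the 250 bases. A member counted here if any of its listed start sites had the motif. Of all promoters, each start site counted singly, 6.34%, 18.5%, 32.2% and 42.6% had them, so the measures are not quite alike. A match is a run of letters and no evidence of binding.

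Type VI collagen, which forms beaded filaments around cells from the chains of COL6A1, COL6A2 and COL6A3, held the gene with the largest fold difference between the lines among members above the floor in both. COL6A3 had 22728, 19994 and 17724 counts in 786O shControl, 24712, 22049 and 23054 in 786O shBMAL1, 74, 80 and 56 in WT8 shControl, and 25, 14 and 19 in WT8 shBMAL1. The WT8 libraries were far below the 786O libraries, and within WT8 the shBMAL1 libraries were below the shControl libraries. The line difference was 298-fold (log2 -8.22 ± 0.15, adjusted p = 5.56e-13). In WT8 the gene fell by 1.91 ± 0.37 on the log2 scale with shBMAL1 (adjusted p = 0.000893). In 786O the groups overlapped and the change of 0.21 ± 0.09 missed the threshold (adjusted p = 0.101), but it was called with RLE scaling (adjusted p = 0.0866), without the filter on low counts (adjusted p = 0.00252) and without 786O shControl replicate 1 (adjusted p = 0.000157) or WT8 shControl replicate 3 (adjusted p = 0.0882).

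COL6A1 and COL6A2, neighbours on chromosome 21, rose with shBMAL1 in 786O and fell in WT8. COL6A1 had 4614, 4653 and 4288 counts in 786O shControl, 6801, 6935 and 6870 in 786O shBMAL1, 3543, 3359 and 3560 in WT8 shControl, and 1187, 1207 and 1111 in WT8 shBMAL1. COL6A2 had 10025, 9699 and 9346, then 10824, 11177 and 10607, then 3751, 3412 and 3729, and last 1810, 1876 and 1675 counts in the same order of groups. For both genes no groups overlapped, with 786O shBMAL1 highest and WT8 shBMAL1 lowest. COL6A1 rose 1.52-fold in 786O (log2 0.60 ± 0.05, adjusted p = 3.69e-13) and fell 3.11-fold in WT8 (log2 -1.63 ± 0.05, adjusted p = 2.17e-25), and the interaction was -2.24 ± 0.07 (adjusted p = 5.38e-25). COL6A2 rose 1.12-fold in 786O (adjusted p = 0.00308) and fell 2.11-fold in WT8 (adjusted p = 2.60e-20), with an interaction of -1.24 ± 0.07 (adjusted p = 6.79e-18). In WT8 shControl they were 1.34-fold and 2.76-fold below 786O shControl. Per kilobase, COL6A3 was at 1.78 ± 0.17 times COL6A1 in 786O shControl and at 0.00804 ± 0.00163 times in WT8 shControl. COL6A1 was at 0.382 ± 0.0096 times COL6A2 in 786O shControl and at 0.788 ± 0.017 times in WT8 shControl.

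COL18A1, whose protein is a proteoglycan core of basement membranes and the precursor of endostatin, had the strongest fall with shBMAL1 in WT8 among the members with a mean of at least 50 counts. It had 25640, 24743 and 21728 counts in 786O shControl, 17731, 20148 and 18988 in 786O shBMAL1, 15225, 14647 and 16216 in WT8 shControl, and 3299, 3162 and 3081 in WT8 shBMAL1. No groups overlapped. The fall with shBMAL1 was 5.02-fold in WT8 (log2 -2.33 ± 0.06, adjusted p = 9.88e-24) and 1.27-fold in 786O (log2 -0.34 ± 0.05, adjusted p = 7.02e-06), and the interaction was -1.99 ± 0.08 (adjusted p = 1.47e-18). COL18A1, COL6A1 and COL6A2 lie within 728 kb of chromosome 21 (46825080 to 47552762 in GENCODE lifted to GRCh37), and COL18A1 overlaps SLC19A1 on the opposite strand, so that reads of the overlap could be shared if strand was not used in counting. COL15A1, the other member of the same family, moved the other way. It had 9, 10 and 8 counts in 786O shControl, 16, 15 and 20 in 786O shBMAL1, 68, 84 and 77 in WT8 shControl, and 126, 116 and 136 in WT8 shBMAL1. These groups did not overlap, and COL15A1 rose with shBMAL1 in 786O (log2 0.91 ± 0.36, adjusted p = 0.0380) and in WT8 (0.66 ± 0.21, adjusted p = 0.00535). The rise in 786O lost its call without replicate 3 of 786O shControl (adjusted p = 0.108) or of 786O shBMAL1 (adjusted p = 0.132).

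COL7A1, the chain of the anchoring fibrils that fasten epithelia to the underlying matrix, ranged from 9540 to 29105 counts per library. It rose 1.26-fold with shBMAL1 in 786O (adjusted p = 0.0137) and fell 1.83-fold in WT8 (adjusted p = 1.00e-05), with an interaction of -1.21 ± 0.13 (adjusted p = 1.86e-05). Its lower level in WT8 shControl (log2 -0.24 ± 0.09, adjusted p = 0.0387) was lost with upper quartile scaling and without WT8 shControl replicate 1. COL8A1, a chain of hexagonal networks, had 6516, 6648 and 6149 counts in 786O shControl, 4707, 4971 and 4887 in 786O shBMAL1, 5353, 5267 and 5202 in WT8 shControl, and 2944, 2636 and 2597 in WT8 shBMAL1. The shBMAL1 libraries were below the shControl libraries of their line, and COL8A1 fell 1.33-fold in 786O (adjusted p = 1.56e-08) and 2.01-fold in WT8 (adjusted p = 4.02e-19). Its partner gene COL8A2 summed to 24 counts over all libraries.

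Genes of fibril-associated collagens, which bind to the surface of fibrils, were mostly higher in WT8. COL9A2 had 38, 32 and 41 counts in 786O shControl, 32, 31 and 38 in 786O shBMAL1, 855, 755 and 860 in WT8 shControl, and 319, 292 and 291 in WT8 shBMAL1. Its 786O groups overlapped and its WT8 groups did not, and its partner chains COL9A1 and COL9A3 summed to 2 and 45 counts over all libraries. It was 21.4-fold higher in WT8 (adjusted p = 3.20e-26) and fell 2.85-fold there with shBMAL1 (adjusted p = 1.12e-15). COL20A1 had no count in 786O shControl, 2, 10 and 7 in 786O shBMAL1, 168, 115 and 164 in WT8 shControl, and 197, 124 and 109 in WT8 shBMAL1. Against a floor of 3 counts per library it was at least 47.8-fold higher in WT8 shControl and at least 2.11-fold higher in 786O shBMAL1 than in 786O shControl, with adjusted p of 2.25e-15 and 0.000598. COL12A1 and COL14A1 were 4.74-fold and 10.5-fold higher in WT8 shControl (adjusted p = 3.38e-12 and 7.54e-28) and fell 1.23-fold and 1.32-fold with shBMAL1 in WT8 (adjusted p = 0.00692 and 7.74e-06). Without WT8 shBMAL1 replicate 3, the fall of COL12A1 went from -0.30 to -0.19 on the log2 scale (adjusted p = 0.0136). COL14A1 rose 1.21-fold in 786O (adjusted p = 0.0177), a call lost without 786O shControl replicate 3 (log2 0.16, adjusted p = 0.198), and COL12A1 was not called there (adjusted p = 0.351).

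COL16A1 departed from this. COL16A1, also fibril-associated, had 188, 217 and 230 counts in 786O shControl, 83, 79 and 70 in 786O shBMAL1, 142, 148 and 164 in WT8 shControl, and 130, 123 and 120 in WT8 shBMAL1. All 4 groups were apart, with 786O shControl highest. It fell 2.73-fold with shBMAL1 in 786O (adjusted p = 8.86e-10) and 1.27-fold in WT8 (adjusted p = 0.0441), a call lost without replicate 3 of either WT8 group, and the interaction was 1.11 ± 0.21 (adjusted p = 4.42e-05). COL13A1, a transmembrane collagen of cell junctions, had 188, 214 and 243 counts in 786O shControl, 216, 212 and 176 in 786O shBMAL1, 268, 274 and 288 in WT8 shControl, and 438, 392 and 454 in WT8 shBMAL1. Only the 786O groups overlapped. It rose 1.49-fold with shBMAL1 in WT8 (adjusted p = 2.96e-05) and was not called in 786O (log2 -0.09 ± 0.12, adjusted p = 0.576), and the interaction was 0.66 ± 0.16 (adjusted p = 0.000929). COL13A1 was 1.24-fold higher in WT8 shControl than in 786O shControl (adjusted p = 0.0157), a call lost without 786O shControl replicate 1. Of the remaining members, COL17A1, the hemidesmosome collagen, fell from 13 to 17 counts per library in WT8 shControl to 1 to 6 in WT8 shBMAL1 (5.02-fold, adjusted p = 0.000827). COL26A1 fell from 15 to 28 counts to 0 to 4 (adjusted p = 6.32e-05), and all counts of WT8 shBMAL1 lay in replicate 3, without which the fitted log2 change went from -3.86 to -7.33. COL28A1 had 10, 14 and 7 counts in 786O shControl and 49, 52 and 37 in 786O shBMAL1, a 4.41-fold rise (adjusted p = 0.000102), against 5, 3 and 2 in WT8 shControl and 0, 1 and 0 in WT8 shBMAL1, a ratio of 10.4 with an exact 95% counting interval of 1.48 to 451 (adjusted p = 0.0194). Without WT8 shBMAL1 replicate 2, which held the only count of that group, the fitted log2 change went from -2.95 to -4.77.

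**Figure D2:**
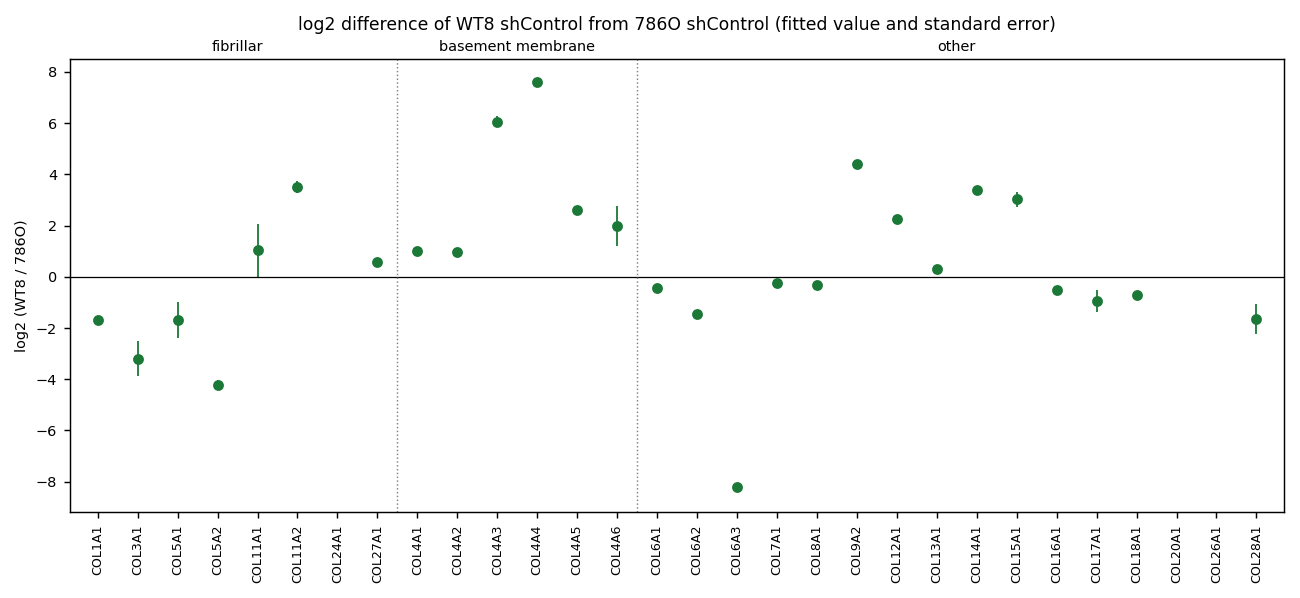
log2 difference of WT8 shControl from 786O shControl for the tested members by class, with the fitted value and its standard error (n = 3 per group). COL20A1, COL24A1 and COL26A1, which had at most 3 counts in every 786O shControl library, are not drawn. The 6 basement membrane genes lie above 0, from 0.96 to 7.59, and COL6A3 lies lowest at -8.22.

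Fibrillar genes other than COL27A1 were low in these cells. COL1A1, COL3A1, COL5A1 and COL5A2 were lower in WT8 shControl than in 786O shControl, whereas COL11A2, COL24A1 and COL27A1 were higher. The fibrillar class held 1.94% of the summed collagen level per kilobase in 786O shControl and 1.81% in WT8 shControl, most of it from COL27A1. COL1A1, the main chain of type I collagen, had 332, 293 and 268 counts in 786O shControl, 138, 143 and 122 in 786O shBMAL1, 82, 107 and 96 in WT8 shControl, and 88, 80 and 62 in WT8 shBMAL1. The 786O groups were apart and the WT8 groups overlapped. COL1A1 fell 2.22-fold with shBMAL1 in 786O (log2 -1.15 ± 0.15, adjusted p = 9.50e-08) and was 3.24-fold lower in WT8 shControl (adjusted p = 6.24e-12). Its fall in WT8 (log2 -0.37 ± 0.18, adjusted p = 0.0682) was lost without the filter on low counts, in a fit of the WT8 groups alone (adjusted p = 0.128), and without WT8 shControl replicate 2 or WT8 shBMAL1 replicate 3. COL1A2, its partner chain, had 17, 10 and 16 counts in 786O shControl and 0 in all other libraries, and was too low to be a member. COL5A2 had 669, 682 and 624 counts in 786O shControl, 283, 286 and 301 in 786O shBMAL1, 53, 31 and 25 in WT8 shControl, and 62, 31 and 29 in WT8 shBMAL1. Again the 786O groups were apart and the WT8 groups overlapped, with a 2.27-fold fall in 786O (adjusted p = 3.52e-08), an 18.7-fold lower level in WT8 shControl (adjusted p = 7.30e-19) and a change of 0.11 ± 0.26 in WT8 (adjusted p = 0.742).

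COL3A1 ends next to COL5A2 on chromosome 2, on the opposite strand, and had 15, 27 and 23 counts in 786O shControl, 0, 0 and 2 in 786O shBMAL1, 2, 0 and 5 in WT8 shControl, and 0, 0 and 1 in WT8 shBMAL1. Only 786O shControl was above the rest. The ratio of 786O shControl to 786O shBMAL1 was 32.5, with an exact 95% counting interval of 8.64 to 274 (adjusted p = 2.03e-05). Both counts of 786O shBMAL1 lay in replicate 3, without which the fitted log2 change went from -4.79 to -7.49. COL5A1, the other chain of type V collagen, moved the other way from COL5A2 in 786O. It had 12, 8 and 9 counts in 786O shControl, 48, 47 and 25 in 786O shBMAL1, 3, 2 and 4 in WT8 shControl, and 1, 16 and 14 in WT8 shBMAL1. The 786O groups were apart, and the WT8 groups overlapped through WT8 shBMAL1 replicate 1. COL5A1 rose 4.10-fold in 786O (adjusted p = 0.000923), and its rise in WT8 (log2 1.69 ± 0.69, adjusted p = 0.0319) was lost without WT8 shBMAL1 replicate 2 (adjusted p = 0.177) or replicate 3 (adjusted p = 0.117).

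Type XI genes, whose chains sit in the core of cartilage fibrils, rose with shBMAL1 in 786O. COL11A2 had 22, 16 and 14 counts in 786O shControl, 81, 116 and 62 in 786O shBMAL1, 187, 182 and 251 in WT8 shControl, and 205, 190 and 161 in WT8 shBMAL1. The 786O groups were apart and both lay below the overlapping WT8 groups. It rose 4.95-fold in 786O (adjusted p = 3.68e-09), was 11.4-fold higher in WT8 shControl (adjusted p = 1.37e-15) and was not called in WT8 with shBMAL1 (log2 -0.21 ± 0.17, adjusted p = 0.286). COL11A1 rose in 786O as well, from 5, 0 and 0 to 20, 22 and 17 counts (log2 3.47 ± 0.79, adjusted p = 0.000512). All 5 counts of the 786O shControl group lay in replicate 1, and without it the fitted change was 7.35 (adjusted p = 0.000122), which is no bound. COL27A1, the most abundant fibrillar gene, had between 2486 and 2733 counts in the 786O libraries, and in WT8 it had 3819 to 4243 with shControl and 1719 to 2080 with shBMAL1. It was not called in 786O (log2 0.00 ± 0.06, adjusted p = 0.966) and fell 2.29-fold in WT8 (adjusted p = 1.80e-19), with an interaction of -1.20 ± 0.08 (adjusted p = 5.93e-15). COL24A1 had at most 2 counts per library in 786O shControl and 57 to 108 in WT8 shControl, a ratio of 113 with an exact 95% counting interval of 31.0 to 939 (adjusted p = 7.59e-12). Its calls with shBMAL1 in 786O and in WT8 came from overlapping groups. The call in 786O was lost without shControl replicate 1 or 3 or shBMAL1 replicate 2, and that in WT8 without replicate 2 or 3 of either group, where the log2 change went from -0.65 to -0.36 without WT8 shControl replicate 3 (adjusted p = 0.425).

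The changes with shBMAL1 are given by class beside the 48.9% of all genes called in 786O and the 69.8% called in WT8. In 786O, 7 of 8 tested fibrillar genes were called (4 higher and 3 lower), 1 of 6 basement membrane genes (lower) and 10 of 16 others (7 higher and 3 lower), with class medians of 1.02, -0.05 and 0.19 on the log2 scale. In WT8, 4 of 8 fibrillar genes were called (1 higher and 3 lower), 5 of 6 basement membrane genes (all lower) and 15 of 16 others (2 higher and 13 lower), with medians of -0.29, -0.53 and -1.04. Between the lines the medians were -0.55, 2.30 and -0.29. Against -0.55 for the fibrillar class stands a median of 0.57 when the filter on low counts is left out, since COL5A3 then enters. The fibrillar genes COL3A1, COL11A1 and COL24A1 passed the filter on low counts only through the groups where they were high. So did COL20A1, COL26A1 and COL28A1 among the others, and COL4A3 among the basement membrane genes. COL4A6 did not pass it in a fit of only the groups compared, with shBMAL1 in either line or between the lines. The class counts and medians therefore describe the list and support nothing further. Whether the classes differ from each other was not tested.

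Side by side, 2 members were called higher in both lines with shBMAL1 (COL5A1 and COL15A1) and 5 were called lower in both (COL1A1, COL4A1, COL8A1, COL16A1 and COL18A1). A further 6 were higher in 786O and lower in WT8, namely COL6A1, COL6A2, COL7A1, COL14A1, COL24A1 and COL28A1. No member was lower in 786O and higher in WT8. In WT8 alone, 10 were called lower and 1 (COL13A1) higher, in 786O alone 3 were called higher and 2 lower, and COL4A6 was called in neither. How many of all genes showed each pattern was not counted, so these numbers describe the list only. As given above, COL1A1, COL5A1, COL14A1, COL15A1, COL16A1 and COL24A1 each lost a call that enters here when 1 library was left out. COL28A1 in WT8 was near the floor. The interaction tests the difference between the lines itself. Its most negative values among members with a mean of at least 50 counts were those of COL20A1, COL11A2, COL6A1 and COL6A3, at -5.84 ± 1.34, -2.52 ± 0.32, -2.24 ± 0.07 and -2.11 ± 0.38, and its most positive those of COL5A2, COL16A1, COL1A1 and COL13A1, at 1.29 ± 0.29, 1.11 ± 0.21, 0.78 ± 0.23 and 0.66 ± 0.16. COL20A1 had no count in 786O shControl, so its fitted interaction depends on the prior count and is no bound.

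**Figure D3:**
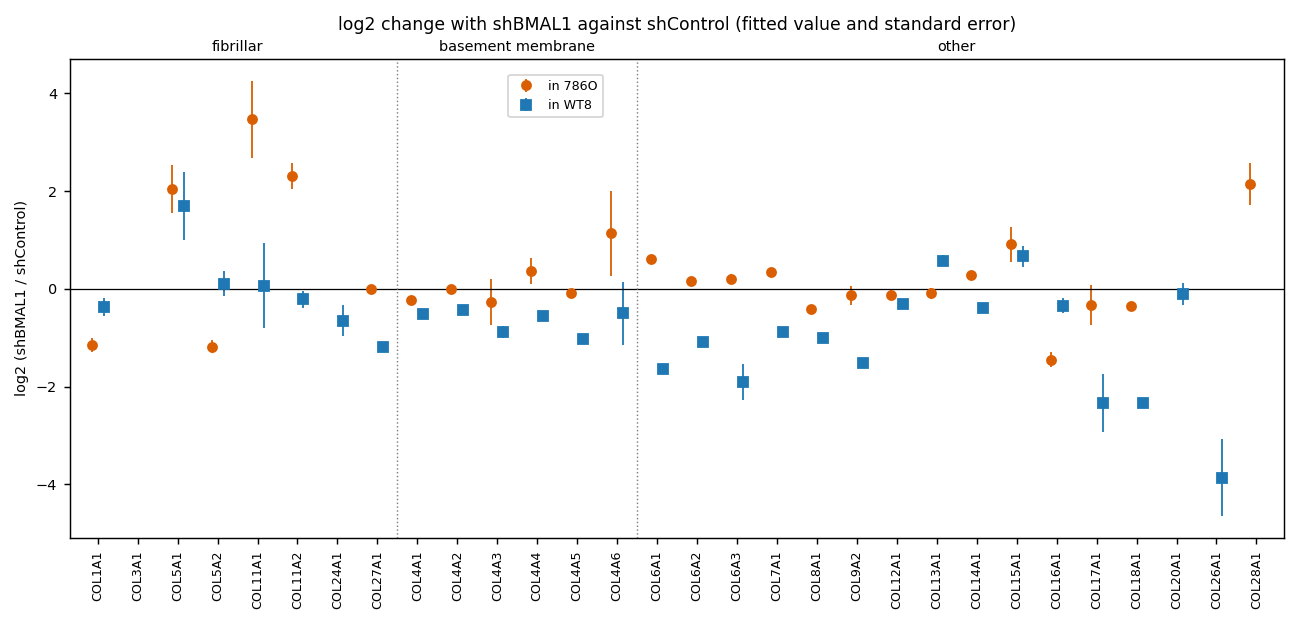
log2 change with shBMAL1 against shControl in 786O (circles) and in WT8 (squares) for the tested members by class, with the fitted value and its standard error (n = 3 per group). Changes in which a group had at most 3 counts in every library are not drawn. COL6A1 lies at 0.60 in 786O and at -1.63 in WT8, and COL18A1 at -0.34 and -2.33.

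The summed collagen level was 4678 ± 379 CPM with shControl and 4687 ± 66 CPM with shBMAL1 in 786O, and 5867 ± 320 and 3769 ± 354 CPM in WT8. The 786O groups overlapped, and the WT8 shBMAL1 libraries (3410 to 4117) were below the WT8 shControl libraries (5514 to 6140). A few genes made up most of this sum, with 8 of 32 members at 100 CPM or more in 786O shControl and 4 in WT8 shBMAL1. Scaled to transcript length, COL4A2 and COL4A1 ranked first and second in every group. The 6 basement membrane genes together held 42.3% ± 0.45 of the length-scaled sum with shControl and 39.6% ± 0.33 with shBMAL1 in 786O, and 70.2% ± 1.1 and 79.6% ± 0.48 in WT8. The groups did not overlap in this share. In an exact two-sided permutation test each of the differences in share had p = 0.1, the smallest value that 3 against 3 libraries allow. COL18A1 held 17.5%, 14.0%, 8.74% and 2.76% in the same order, and COL6A3 7.53%, 8.81%, 0.0205% and 0.00857%. With the exon union as the length the basement membrane share was 30.4%, 27.6%, 57.9% and 69.2%.

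**Figure D4:**
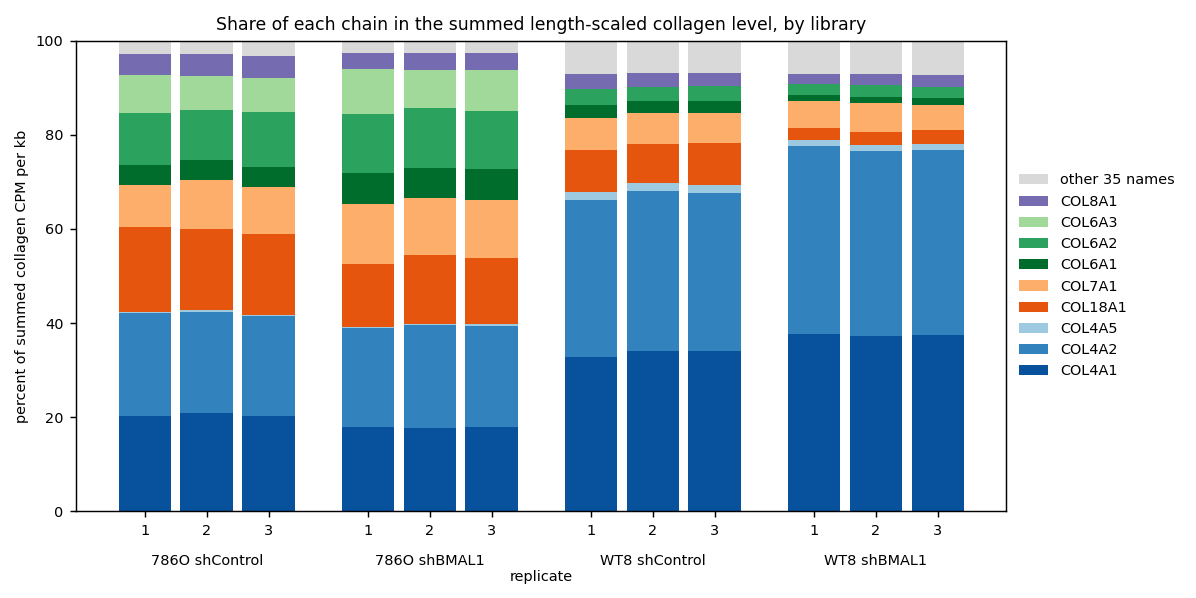
Share of single chains in the summed collagen CPM per kilobase of transcript, as stacked bars that reach 100% for each of the 12 libraries. Grey holds the remaining names. The basement membrane chains COL4A1, COL4A2 and COL4A5 (blue) widen from 786O to WT8, whereas COL6A3 (light green) is too thin to be seen in WT8.

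Genes that make, process, cross-link or bind collagen were followed as a list of 45 names, of which 43 were tested. With shBMAL1, 18 rose and 7 fell in 786O, and 11 rose and 27 fell in WT8, while 15 were higher and 24 lower in WT8 shControl than in 786O shControl. Of all genes, 24.5% rose and 24.4% fell in 786O, 32.9% rose and 36.9% fell in WT8, and 39.3% were higher and 40.1% lower between the lines, and the list's counts are to be read against these shares. The median log2 changes of the list were 0.16, -0.31 and -0.27, beside 0.00, -0.04 and 0.00 over all genes. SERPINH1, the collagen chaperone HSP47, fell in both lines, from 145 to 63.7 CPM in 786O (log2 -1.18 ± 0.05) and from 71.8 to 23.2 CPM in WT8 (-1.63 ± 0.06). PLOD2, the lysyl hydroxylase of the collagen telopeptides, rose from 1034 to 1293 CPM in 786O (0.32 ± 0.04) and fell from 1017 to 318 CPM in WT8 (-1.68 ± 0.04). The cross-linking enzyme LOXL2 was at 1029 and 1076 CPM in 786O (0.06 ± 0.05, adjusted p = 0.277) and fell from 794 to 189 CPM in WT8 (-2.07 ± 0.05). P4HA1, a catalytic subunit of prolyl hydroxylase, fell by 0.13 ± 0.05 in 786O and by 0.82 ± 0.05 in WT8. Of the 8 tested collagen receptors, 5 rose and 0 fell in 786O, where 3 were not called and 48.9% of all genes were, and 1 rose and 6 fell in WT8, where 69.8% of all genes were called. ITGA2, a collagen-binding integrin chain, rose by 0.76 ± 0.08 in 786O and fell by 1.05 ± 0.15 in WT8, and the endocytic receptor MRC2 went from 452 to 593 CPM (0.39 ± 0.04) and from 799 to 356 CPM (-1.17 ± 0.04). Of the 8 folding and export genes, 5 were called higher and 2 lower in 786O, where 48.9% of all genes were called. In WT8, where 69.8% were, 5 of these genes were called higher and 3 lower. Among them SEC23A and SEC24D, coat proteins of the vesicles that leave the endoplasmic reticulum, rose by 0.33 ± 0.04 and 0.33 ± 0.04 in 786O and by 0.83 ± 0.04 and 1.15 ± 0.05 in WT8. TLL1, a propeptide protease, had no count in WT8, so no change can be given there.

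The 12 names under the limit were COL1A2, COL2A1, COL6A6, COL8A2, COL9A1, COL9A3, COL10A1, COL19A1, COL21A1, COL22A1, COL23A1 and COL25A1, which summed to between 0 and 45 counts over the 12 libraries. COL25A1 had no count at all, which at a limit of 3 counts per library leaves room for a level that was not detectable at this depth. The 2 members that were not tested stayed low, COL5A3 with 0, 1 and 3 counts in 786O shControl, 6, 5 and 2 in 786O shBMAL1, 13, 22 and 8 in WT8 shControl, then 0, 0 and 1 in WT8 shBMAL1, and COL6A5 with 0 to 14 counts per library.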

How the data were processed

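RNA of 12 cultures was sequenced from stranded mRNA libraries. According to the methods of the study, reads were aligned to GRCh37 with SeqMan NGen and counts exported from ArrayStar. The submitters' processing notes list hg38, STAR and DESeq2 with no role, so the build is uncertain. Annotation, use of strand and treatment of reads with several alignments are not given in the sources used here. The authors deposited estimated counts per gene with 0.028 standing for 0, and 5.67% of the other values were not whole. The counts had been planned for as plain counts. Here 0.028 was set to 0, the 45 names on several lines were summed, and values were rounded to whole numbers. No sample column was left unused.

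edgeR 4.0.16 (R 4.3.3) was run on all 12 libraries with a mean per group, TMM scaling, filterByExpr and the robust quasi-likelihood fit, tested on simulated data. Adjusted p-values are edgeR's, by Benjamini-Hochberg over 16838 genes. The SE is the log2 change divided by the root of F. Lengths are those of MANE Select transcripts in GENCODE 44 lifted to GRCh37, and promoters come from RefSeq on GRCh38.p14. Members with values in every library were a set list plus the 4 strongest called changes per direction and comparison, with a mean of at least 50 counts and no overlap between the groups. Other genes were named after their values were seen. The members and lists were chosen with earlier results of these data known. Intervals and floors cover counting error only, and p-values measure the spread between cultures. Alternatives were RLE and upper quartile scaling, DESeq2 1.42.0, no filter, stricter thresholds, only the groups compared, a replicate block, repeated names by their highest line and each library left out.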

Additional observations from a re-analysis of the deposited data

Results flagged for a closer look

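The change with shBMAL1 differed between the lines, by the interaction test of edgeR (adjusted p under 0.1), for 8 genes chosen by size. The log2 change in WT8 minus that in 786O was -5.84 for COL20A1, -2.52 for COL11A2, -2.24 for COL6A1 and -2.11 for COL6A3. It was 1.29 for COL5A2, 1.11 for COL16A1, 0.78 for COL1A1 and 0.66 for COL13A1. COL20A1 rests on 786O shControl libraries without a count. COL6A1 alone of these was called in opposite directions in the lines. Groups of 3 libraries were too small to look for single outlying values.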

How the results depend on the processing

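The number of members called stayed within 1.5 times under every alternative run. It lay between 12 and 19 in 786O, 16 and 25 in WT8, 24 and 30 between the lines and 21 and 25 in the interaction. Leaving out 1 library gave 16 to 19, 22 to 25, 28 to 30 and 22 to 25. The replicate block gave 19, 23, 29 and 23, but the numbers do not pair the cultures, since the 18 correlations of same-numbered libraries between groups ranged from -0.06 to 0.07. Under it COL6A3 was called in 786O (adjusted p = 0.00155) and COL24A1 was no longer called in WT8. For the genes with values in every library, no alternative turned a called direction, 29 calls were lost and 9 gained. Most losses came from the 1.5-fold limit. Upper quartile scaling moved the median of all genes to 0.11 between the lines and -0.12 in WT8.

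Class medians moved more. With COL7A1, COL15A1, COL17A1 and COL18A1 counted as basement membrane, its median went from -0.53 to -0.71 in WT8 and from 2.30 to 1.51 between the lines, and that of the other classes from -0.29 to -0.010. Without the filter on low counts, chosen for class medians after seeing the data like the exon union lengths and the bounds, the fibrillar median went from 1.02 to 1.61 in 786O and from -0.55 to 0.57 between the lines, because untested COL5A3 enters. Setting genes with a group at or under 3 counts per library to their bound or count ratio changed no class median. Where both groups lay at or under about 3 counts per library, no change could be detected.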
